A study of Mus musculus with 32 samples.

Results

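The Tdpoz family comprised 5 mouse genes, Tdpoz1, Tdpoz2, Tdpoz3, Tdpoz4 and Tdpoz5. They were chosen by name, as the gene rows whose Ensembl identifier carries 1 of these names in the GENCODE annotation of mouse build mm10, and all 5 were found among the 55335 genes counted. They were followed through 32 libraries in 16 groups of 2. Growing oocytes of postnatal day 14 came from H3.3K4M transgenic females, set against H3.3WT transgenic females, so both of these groups carried an H3.3 transgene whose promoter the labels do not give. All other groups were wild type. Ovulated oocytes at the second meiotic metaphase (MII) came from 12-month-old and from 8-week-old females. The 2-cell embryos carried the fertilisation code IVF in their titles and came from females of 6 to 8 weeks after aphidicolin, cycloheximide or MG132, from untreated 12-month-old females, or from females of 6 to 8 weeks after the solvent DMSO. The 4-cell embryos came from females of 6 to 8 weeks after aphidicolin, cycloheximide, MG132 or DMSO. AB2.2 embryonic stem cells, a mouse line, were treated with cycloheximide, MG132 or DMSO. Aphidicolin blocks replicative DNA polymerases, cycloheximide blocks translation, and MG132 blocks the proteasome. Doses, treatment times and the number of oocytes or embryos per library were not given, and nothing states that the replicates came from separate animals or cultures, so a p-value here speaks of library-to-library spread alone, which may be technical.

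TDPOZ proteins join a TRAF-like domain, also called a MATH domain, to a BTB/POZ domain. The best known protein built this way is SPOP, a substrate adaptor of a ubiquitin ligase: its MATH domain holds the protein to be tagged and its BTB/POZ domain binds the scaffold CUL3. In the mouse the Tdpoz genes form a tandem cluster of recent copies and belong to the transcripts that appear with the activation of the embryonic genome, which in this species is centred on the 2-cell stage and includes the retrovirus MERVL and the Zscan4 genes.

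The 5 members lay within 309773 bases of chromosome 3 (build GRCm38, the assembly of mm10). Tdpoz2 (ENSMUSG00000103362.1) occupied chr3:93651542-93652686 on the minus strand. Tdpoz1 (ENSMUSG00000094084.2) occupied chr3:93669333-93676310 on the minus strand. Tdpoz4 (ENSMUSG00000060256.1) occupied chr3:93796398-93797510 on the plus strand. The remaining members were Tdpoz3 (ENSMUSG00000058005.3) at chr3:93826020-93827117 on the plus strand and Tdpoz5 (ENSMUSG00000094163.1) at chr3:93960292-93961314 on the minus strand. Each has a single coding exon, and all are annotated as protein coding. The coding sequences run from 1020 bases in Tdpoz5 to 1110 bases in Tdpoz4 and are 76.4% to 88.0% identical between members, with Tdpoz1 and Tdpoz3 the most alike and Tdpoz3 and Tdpoz4 the least alike. The stretch of coding sequence that differs least is shown as the place where the members are most alike. Over coding bases 559 to 648 only 9 of 90 aligned positions differ, and those are in capitals.
Tdpoz1 chr3:93670828-93670917 (minus strand): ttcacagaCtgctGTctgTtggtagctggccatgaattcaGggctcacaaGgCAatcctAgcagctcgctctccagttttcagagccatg
Tdpoz2 chr3:93652016-93652105 (minus strand): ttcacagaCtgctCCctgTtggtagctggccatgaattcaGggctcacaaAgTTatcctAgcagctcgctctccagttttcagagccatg
Tdpoz3 chr3:93826578-93826667 (plus strand): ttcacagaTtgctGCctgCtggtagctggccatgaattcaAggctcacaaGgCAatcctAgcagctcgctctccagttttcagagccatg
Tdpoz4 chr3:93796956-93797045 (plus strand): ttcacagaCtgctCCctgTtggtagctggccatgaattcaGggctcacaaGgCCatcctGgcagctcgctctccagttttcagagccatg
Tdpoz5 chr3:93960667-93960756 (minus strand): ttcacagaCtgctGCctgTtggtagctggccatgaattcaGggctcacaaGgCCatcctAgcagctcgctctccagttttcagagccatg

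Over coding bases 320 to 409 the members differ at 57 of 90 aligned positions, again in capitals.
Tdpoz1 chr3:93671067-93671156 (minus strand): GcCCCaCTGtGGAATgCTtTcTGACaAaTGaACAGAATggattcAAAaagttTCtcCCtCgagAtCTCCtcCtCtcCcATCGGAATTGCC
Tdpoz2 chr3:93652255-93652344 (minus strand): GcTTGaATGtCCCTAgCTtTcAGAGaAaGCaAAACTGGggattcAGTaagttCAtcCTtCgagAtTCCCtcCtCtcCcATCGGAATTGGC
Tdpoz3 chr3:93826339-93826428 (plus strand): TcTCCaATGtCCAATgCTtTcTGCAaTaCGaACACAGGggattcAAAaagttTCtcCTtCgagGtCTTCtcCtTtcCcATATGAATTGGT
Tdpoz4 chr3:93796717-93796806 (plus strand): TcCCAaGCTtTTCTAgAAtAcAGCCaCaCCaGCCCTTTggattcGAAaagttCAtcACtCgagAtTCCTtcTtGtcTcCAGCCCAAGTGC
Tdpoz5 chr3:93960906-93960995 (minus strand): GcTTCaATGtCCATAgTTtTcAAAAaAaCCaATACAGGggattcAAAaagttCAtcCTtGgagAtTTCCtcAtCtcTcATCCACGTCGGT

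How far a count belongs to its member depends on copies elsewhere in the cluster. Of the windows of 100 bases along each member's transcript, 88.4% occur in no other annotated transcript for Tdpoz4, 78.1% for Tdpoz1, 77.9% for Tdpoz2 and 53.3% for Tdpoz3. For Tdpoz5 the share is 0.0%, since its coding sequence is 100% identical to that of Gm10697, which RefSeq calls Tdpoz7. Counts of Tdpoz5 are therefore uncertain as to which of these copies they came from, and counts of Tdpoz3 may be shared with the pseudogene Gm4982, whose aligned sequence is 99.0% identical. No window of 100 bases was shared between members, whereas some windows of 50 bases were, so at 100 bases the sharing is with relatives. How reads that match several places were counted is not given in the sources used here.

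Start regions from RefSeq (GRCm38.p6) were present for Tdpoz1, Tdpoz4 and Tdpoz5, and for the relatives Tdpoz7, Tdpoz8 (Gm4858 in GENCODE) and Tdpoz9 (Gm9125). The 150 bases before each RefSeq start are shown because some of these starts share sequence. Tdpoz1, Tdpoz9 and Tdpoz8 share a TATATAA element, in capitals, at 60, 33 and 29 bases before the RefSeq start. GENCODE starts Tdpoz1 further upstream, at base 93676310, so part of its printed window lies inside the gene as placed above. The element stands closer to that start than to the RefSeq one. For Tdpoz9 and Tdpoz8 both annotations give the same start.
Tdpoz1 chr3:93676284-93676433 (minus strand): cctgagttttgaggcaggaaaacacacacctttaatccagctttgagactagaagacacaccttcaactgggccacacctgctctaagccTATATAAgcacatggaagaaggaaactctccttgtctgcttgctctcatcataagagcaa
Tdpoz9 chr3:94054886-94055035 (minus strand): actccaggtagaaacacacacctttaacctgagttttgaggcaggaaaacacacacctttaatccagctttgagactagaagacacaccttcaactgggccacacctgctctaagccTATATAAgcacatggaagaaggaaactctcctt
Tdpoz8 chr3:93068673-93068822 (plus strand): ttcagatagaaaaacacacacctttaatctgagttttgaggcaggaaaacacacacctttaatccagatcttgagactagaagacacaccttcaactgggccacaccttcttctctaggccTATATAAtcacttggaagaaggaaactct

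Tdpoz4 and Tdpoz5 have no separate leader exon in the annotation, and their models begin at the start codon. Both hold TTCTTTTCA, in capitals, at 48 and 44 bases before it. The same letters stand 44 bases before the start of Tdpoz7 (chr3:94072645-94072794, minus strand) and 45 bases before a second RefSeq start of Tdpoz8 (chr3:93073371-93073520, plus strand), neither of which is printed.
Tdpoz4 chr3:93796248-93796397 (plus strand): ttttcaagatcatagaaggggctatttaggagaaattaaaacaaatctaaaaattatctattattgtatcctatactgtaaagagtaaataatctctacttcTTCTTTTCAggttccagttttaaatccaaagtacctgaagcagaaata
Tdpoz5 chr3:93961315-93961464 (minus strand): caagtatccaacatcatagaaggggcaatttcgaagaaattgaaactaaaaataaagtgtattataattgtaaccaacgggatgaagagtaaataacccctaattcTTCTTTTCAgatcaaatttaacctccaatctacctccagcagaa

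The elements were chosen after the sequences had been seen. Counting both strands of the 300-base windows of all 32851 RefSeq starts, TATATAA occurs in 3.242% and TTCTTTTCA in 0.679%. ACACACCTT, which stands 3 times before the starts of Tdpoz1, Tdpoz8 and Tdpoz9, occurs in 0.396% of all windows, and GGATTA, found once in the same genes, occurs in 7.062%. TGATT followed after any pair of bases by ATCA occurs in 0.207% of all windows and in none of the Tdpoz windows.

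Levels are given as CPM, a gene's reads per 1000000 reads counted to genes and repeats in its library. The libraries held 14313718 reads (aphidicolin 2-cell embryos, replicate 1) to 34713159 reads (aphidicolin 4-cell embryos, replicate 2). Marker genes set apart some of the labelled cell types and not others. Summed over 10 oocyte markers, MII oocytes held 19673 to 22278 CPM, 4-cell embryos 96.7 to 347 CPM and stem cells 7.83 to 10.8 CPM. The summed level of 5 sperm and testis genes was at most 17.9 CPM in any library. Summed over 8 stem cell markers, growing oocytes held 5585 to 6286 CPM and stem cells 4634 to 5691 CPM, so this list did not separate them. Summed over 10 cumulus and granulosa cell markers, DMSO 4-cell embryos held 342 and 331 CPM and MII oocytes 77.9 to 114 CPM. Only 4 of these 10 markers had counts in DMSO 4-cell embryos. In MII oocytes 8 of them had counts in 8-week-old females and 9 in 12-month-old females. The sums thus rest on different genes and do not rank the groups by their content of such cells.

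**Figure D1:**
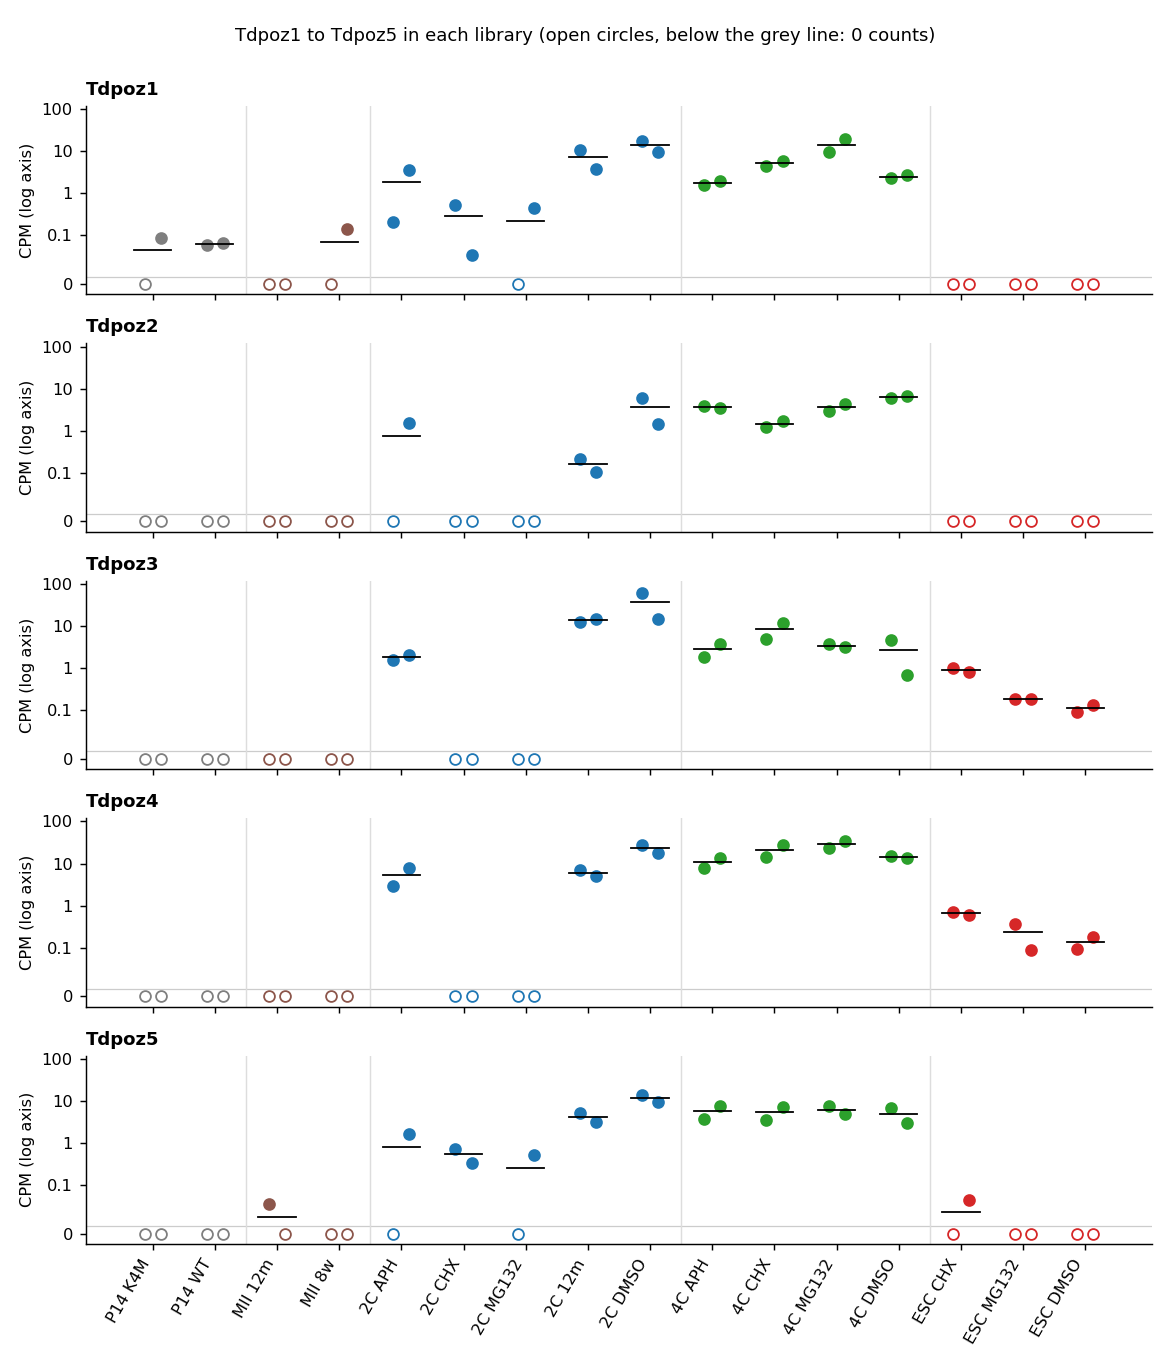
CPM of each member, 1 panel per gene on a log axis, in every library of the 16 groups. Points are libraries, open circles are libraries at 0 counts and lines are group means; the members are at or near 0 in the oocytes, at 3.71 to 37.8 CPM on average in DMSO 2-cell embryos and at most 1.01 CPM in any stem cell library.

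The family was almost silent in oocytes and came on at the 2-cell stage. Tdpoz1 had 0 and 3 counts in H3.3K4M growing oocytes, against 2 and 2 counts in H3.3WT growing oocytes. It had 0 and 0 counts in MII oocytes of 12-month-old females, against 0 and 4 counts in those of 8-week-old females. Tdpoz5 had 1 and 0 counts in MII oocytes of 12-month-old females, and the other members had no count in any of the 8 oocyte libraries. These levels are too low to say whether the mutant histone or the age of the female changed them: no member passed the low-count filter in either comparison, in which 22.4% of 15386 genes (H3.3K4M against H3.3WT) and 0.802% of 15083 genes (12 months against 8 weeks) were called. Nor did any member pass it between MII oocytes of 8-week-old females and H3.3WT growing oocytes, where 61.8% of genes were called and transgene and stage cannot be told apart. A count of 0 in both libraries of a group allows up to 0.0538 CPM (3 counts over the pair, MII oocytes of 8-week-old females); this limit and the intervals below cover counting error only.

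In DMSO 2-cell embryos all 5 members were higher than in MII oocytes of 8-week-old females, where 10.1% of the 22954 genes tested were called higher. Tdpoz3 stood at 60.6 and 15.1 CPM in the embryos, against 0 counts in both oocyte libraries, at least 713-fold higher (adjusted p = 0.00291). Tdpoz4 stood at 27.6 and 18.3 CPM in the embryos, against 0 counts in the oocytes, at least 429-fold higher (adjusted p = 0.000213). Embryo and oocyte libraries did not overlap for any member, as was the case, with the embryos higher, for 49.0% of genes tested. Tdpoz5 stood at 13.7 and 9.37 CPM in the embryos, against 0 counts in the oocytes, at least 215-fold higher (adjusted p = 0.00095). Tdpoz2 stood at 5.99 and 1.43 CPM, against 0 counts, at least 69.9-fold higher (adjusted p = 0.00661). Tdpoz1 was the only member with counts in these oocytes. It stood at 17.7 and 9.81 CPM in the embryos, against 0 and 0.142 CPM in the oocytes, a log2 fold change of 6.67 ± 1.18 (SE, adjusted p = 0.00471). All 5 calls held when any 1 of the 4 libraries was left out. Here as in every comparison of these bulk libraries, fewer cells of a type and less RNA per cell cannot be told apart.

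Per kilobase of exon, which is the scale for comparing genes, Tdpoz3 was highest in DMSO 2-cell embryos at 34.5 ± 29.3 CPM per kb (SD, n = 2), followed by Tdpoz4 at 20.6 ± 5.93, Tdpoz5 at 11.3 ± 2.99, Tdpoz1 at 5.84 ± 2.37 and Tdpoz2 at 3.24 ± 2.82. The DMSO libraries were furthest apart for Tdpoz3 and Tdpoz2, both higher in replicate 1. The first place of Tdpoz3 rests on replicate 1. In replicate 2 Tdpoz4 stood at 18.3 CPM over 1.113 kb and Tdpoz3 at 15.1 CPM over 1.098 kb. The scale is uneven, since the 2.353 kb of Tdpoz1 reach beyond its 1095 coding bases while the models of Tdpoz3, Tdpoz4 and Tdpoz5 begin at the start codon.

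Embryos of 12-month-old females also expressed the family. Against MII oocytes of females of the same age, 4 of 5 members were higher, where 5.8% of genes were called higher. The bounds were at least 256-fold for Tdpoz3 (adjusted p = 0.00582), at least 134-fold for Tdpoz1 (adjusted p = 0.00385) and at least 115-fold for Tdpoz4 (adjusted p = 0.000631). Tdpoz5 rested on a single oocyte read, and its ratio of 232 has a 95% counting interval of 41.2 to 9202 (adjusted p = 0.00344). Tdpoz2, with 6 and 3 counts in the embryos and 0 in the oocytes, was at least 3-fold higher and was not called (adjusted p = 0.115). These 4 calls held when any 1 library was left out.

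Set against DMSO 2-cell embryos, untreated embryos of 12-month-old females had lower mean CPM of all 5 members, but the edgeR test called none of them, where 0.746% of genes were called lower. Tdpoz2 stood at 0.214 and 0.106 CPM in embryos of 12-month-old females, against 5.99 and 1.43 CPM in DMSO embryos, a log2 fold change of -4.13 ± 1.74 (adjusted p = 0.329). Tdpoz4 stood at 7.13 and 5.11 CPM, against 27.6 and 18.3 CPM in DMSO embryos, a log2 fold change of -1.55 ± 0.58 (adjusted p = 0.273). For both genes the groups did not overlap. These 2 members had an unadjusted p under 0.05, and the DESeq2 Wald test called no member either. The other log2 fold changes were -1.13 ± 0.59 for Tdpoz3, -1.12 ± 1.17 for Tdpoz5 and -0.56 ± 1.15 for Tdpoz1. The sign turned for Tdpoz3 without DMSO replicate 1 (0.0916) and for Tdpoz1 without replicate 2 of the 12-month-old females (0.0105). In 4 of 5 members the libraries of the groups did not overlap, all lower, as was the case for 34.0% of all genes tested. Female age and the DMSO vehicle cannot be told apart in this comparison.

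Each drug was then compared with DMSO at the 2-cell stage. The 3 comparisons share the DMSO libraries. Cycloheximide left almost no Tdpoz reads: all 5 members were lower, where 13.0% of genes were called lower. Tdpoz3 had 0 counts in both cycloheximide libraries, against 60.6 and 15.1 CPM in DMSO embryos, at least 739-fold lower (adjusted p = 0.00017). Tdpoz4 had 0 counts, against 27.6 and 18.3 CPM, at least 445-fold lower (adjusted p = 0.000164). Tdpoz2 had 0 counts, against 5.99 and 1.43 CPM, at least 72.4-fold lower (adjusted p = 0.0244). The members that kept some reads were Tdpoz1 and Tdpoz5. Tdpoz1 stood at 0.530 and 0.0339 CPM in cycloheximide embryos, against 17.7 and 9.81 CPM in DMSO embryos, a log2 fold change of -5.20 ± 1.42 (adjusted p = 0.0209). Tdpoz5 stood at 0.742 and 0.339 CPM in cycloheximide embryos, against 13.7 and 9.37 CPM in DMSO embryos, a log2 fold change of -4.01 ± 1.33 (adjusted p = 0.0473). The cycloheximide and DMSO libraries did not overlap for any member, as was the case, with cycloheximide lower, for 40.3% of genes. The calls of Tdpoz3 and Tdpoz4 held under every omission of 1 library. Tdpoz1 was lost without cycloheximide replicate 2 (-4.30, adjusted p = 0.111) or DMSO replicate 1 (-4.77, adjusted p = 0.0651). Tdpoz2 was lost without either cycloheximide library or without DMSO replicate 1 (adjusted p = 0.0673 to 0.0926), and Tdpoz5 without any 1 of the 4 (adjusted p = 0.077 to 0.194).

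MG132 gave the same list of 5 lower members, where 4.68% of genes were called lower. Tdpoz3 had 0 counts in both MG132 libraries, against 60.6 and 15.1 CPM in DMSO embryos, at least 557-fold lower (adjusted p = 0.000485). Tdpoz4 had 0 counts, against 27.6 and 18.3 CPM, at least 335-fold lower (adjusted p = 0.000482). Tdpoz2 had 0 counts, against 5.99 and 1.43 CPM, at least 54.6-fold lower (adjusted p = 0.0454). All reads of the family in MG132 embryos came from replicate 2. Tdpoz1 stood at 0 and 0.447 CPM in MG132 embryos, against 17.7 and 9.81 CPM in DMSO embryos, a log2 fold change of -5.82 ± 1.47 (adjusted p = 0.0283). Tdpoz5 stood at 0 and 0.516 CPM, against 13.7 and 9.37 CPM, a log2 fold change of -5.40 ± 1.44 (adjusted p = 0.0355). Again no member overlapped between the groups, which held for 25.4% of genes with MG132 lower. Tdpoz3 and Tdpoz4 kept their calls under every omission of 1 library. Tdpoz1 was lost without DMSO replicate 1 (-5.37, adjusted p = 0.098) or MG132 replicate 1 (-4.99, adjusted p = 0.136). Tdpoz2 was lost without DMSO replicate 1 or either MG132 library (adjusted p = 0.157 to 0.221), and Tdpoz5 without either DMSO library or MG132 replicate 1 (adjusted p = 0.052 to 0.146). Between cycloheximide and MG132 no member was called (9.5% of genes called, 0 members with an unadjusted p under 0.05, 0 by DESeq2); a log2 difference could be fitted for Tdpoz1 (0.62 ± 1.42) and Tdpoz5 (1.40 ± 1.32), and the other members had 0 counts in both groups.

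Aphidicolin lowered Tdpoz3 and left the rest uncalled: 1 of 5 members was lower, where 0.192% of genes were called lower. Tdpoz3 stood at 1.54 and 2.07 CPM in aphidicolin embryos, against 60.6 and 15.1 CPM in DMSO embryos, a log2 fold change of -4.41 ± 0.68 (adjusted p = 0.0443). The groups were far apart, but the call was lost without aphidicolin replicate 1 (-4.23, adjusted p = 0.242), aphidicolin replicate 2 (-4.58, adjusted p = 0.0576) or DMSO replicate 1 (-3.15, adjusted p = 0.158), and in a fit of only these 4 libraries (adjusted p = 0.13). Tdpoz4 stood at 3.004 and 7.71 CPM in aphidicolin embryos, against 27.6 and 18.3 CPM in DMSO embryos (-2.14 ± 0.59, adjusted p = 0.244). Tdpoz1 stood at 0.210 and 3.53 CPM, against 17.7 and 9.81 CPM (-2.89 ± 1.24, adjusted p = 0.461). Tdpoz5 stood at 0 and 1.64 CPM, against 13.7 and 9.37 CPM (-3.79 ± 1.31, adjusted p = 0.343). These members, like Tdpoz3, were lower in both aphidicolin libraries than in either DMSO library, which held for 19.6% of genes. For Tdpoz2, at 0 and 1.49 CPM against 5.99 and 1.43 CPM, the groups overlapped (-2.31 ± 1.57, adjusted p = 0.68). DESeq2 called 3 members lower, namely Tdpoz3, Tdpoz4 and Tdpoz5.

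The aphidicolin libraries differed from each other, as did other 2-cell pairs. Replicate 1 held 4.75 CPM of the summed family and replicate 2 held 16.4 CPM. Reads of Tdpoz2 and Tdpoz5 came from replicate 2 alone.

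Aphidicolin embryos were above cycloheximide and MG132 embryos, both at 0 counts, for Tdpoz3 and Tdpoz4. Against cycloheximide embryos, Tdpoz3 was at least 36.4-fold higher (adjusted p = 0.00304) and Tdpoz4 at least 118-fold higher (adjusted p = 0.00075), 2 of 5 members, where 9.61% of genes were called higher. Against MG132 embryos the bounds were at least 27.4-fold for Tdpoz3 (adjusted p = 0.0153) and at least 88.6-fold for Tdpoz4 (adjusted p = 0.00538), where 0.746% of genes were called higher. The second call of Tdpoz3 was lost without MG132 replicate 2 (adjusted p = 0.0815) and in a fit of only the libraries compared (adjusted p = 0.0535). Aphidicolin embryos were also higher than MII oocytes of 8-week-old females for these members, at least 35.2-fold for Tdpoz3 (adjusted p = 0.00235) and at least 113.5-fold for Tdpoz4 (adjusted p = 0.000541), where 10.1% of genes were called higher. Cycloheximide embryos did not pass this test for any member, where 9.5% of genes were called higher (1 member, Tdpoz5, with an unadjusted p under 0.05 and also called by DESeq2). Neither did MG132 embryos, where 8.46% were called higher (0 members under 0.05, 0 by DESeq2).

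The summed family level per group puts these results in order. DMSO 2-cell embryos averaged 89.8 ± 50.6 CPM (SD, n = 2). The level was 56.5 ± 13.8 CPM in MG132 4-cell embryos, 41.2 ± 18.03 in cycloheximide 4-cell embryos, 31.1 ± 5.92 in 2-cell embryos of 12-month-old females, 30.8 ± 6.33 in DMSO 4-cell embryos and 24.7 ± 8.24 in aphidicolin 4-cell embryos. Aphidicolin 2-cell embryos followed at 10.6 ± 8.27 CPM, and cycloheximide and MG132 2-cell embryos at 0.822 ± 0.636 and 0.482 ± 0.681 CPM. Stem cells held 1.59 ± 0.204 CPM after cycloheximide, 0.415 ± 0.205 after MG132 and 0.2505 ± 0.0926 after DMSO, and no oocyte group exceeded 0.0709 CPM on average. Single members differed in which group was highest. Tdpoz3 was highest in DMSO 2-cell embryos at 37.8 CPM, followed by 2-cell embryos of 12-month-old females at 13.6 CPM and cycloheximide 4-cell embryos at 8.45 CPM, and libraries of neighbouring groups in this order did not overlap. Tdpoz5 was also highest in DMSO 2-cell embryos, at 11.5 CPM, above all libraries of MG132 4-cell embryos at 6.19 CPM, while neighbouring groups from there down to 2-cell embryos of 12-month-old females at 4.12 CPM overlapped. Tdpoz2 was highest in DMSO 4-cell embryos at 6.30 CPM, above all libraries of DMSO 2-cell embryos at 3.71 CPM. Tdpoz4 and Tdpoz1 were highest in MG132 4-cell embryos, at 29.1 and 14.3 CPM, but overlapped there with DMSO 2-cell embryos at 23.0 and 13.7 CPM.

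Markers of the oocyte moved with the 2-cell drug groups. Summed over 10 oocyte markers, all with counts in every 2-cell group, cycloheximide embryos held 17966 and 25222 CPM, MG132 embryos 10548 and 6704 CPM, aphidicolin embryos 6936 and 5367 CPM, and DMSO embryos 4762 and 5066 CPM. Summed over the 9 measured of 11 markers of the 2-cell embryo, cycloheximide embryos held 62.9 and 98.0 CPM, MG132 embryos 241 and 276 CPM, aphidicolin embryos 268 and 406 CPM, and DMSO embryos 1214 and 1556 CPM. This second sum is not particular to 2-cell embryos. It was 328 and 286 CPM in MII oocytes of 8-week-old females and 434 and 415 CPM in those of 12-month-old females. The part of either shift between the 2-cell groups in the Tdpoz differences was not tested.

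DMSO embryos of the 4-cell and the 2-cell stage were compared next. In them, 1 of 5 members was lower at the 4-cell stage, where 29.4% of genes were called lower. This was Tdpoz3, at 4.74 and 0.688 CPM in 4-cell embryos, against 60.6 and 15.1 CPM in 2-cell embryos, a log2 fold change of -3.35 ± 0.98 (adjusted p = 0.0219). The stages did not overlap, but without 2-cell DMSO replicate 1 the call was lost (-2.16, adjusted p = 0.123). Tdpoz1 stood at 2.25 and 2.68 CPM in 4-cell embryos, against 17.7 and 9.81 CPM in 2-cell embryos (-2.06 ± 0.88, adjusted p = 0.0796). Tdpoz5 (-0.82 ± 0.71) and Tdpoz4 (-0.25 ± 0.49) were not called. Tdpoz2 was the only member with more reads at the 4-cell stage, at 6.10 and 6.50 CPM, against 5.99 and 1.43 CPM in 2-cell embryos (1.19 ± 0.90, adjusted p = 0.293). The median log2 fold change of all genes between these stages was -0.57, and it moved by 0.22 with DESeq2 size factors and by -0.16 with library sizes from genes alone, under which the sign of each member was kept.

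**Figure D2:**
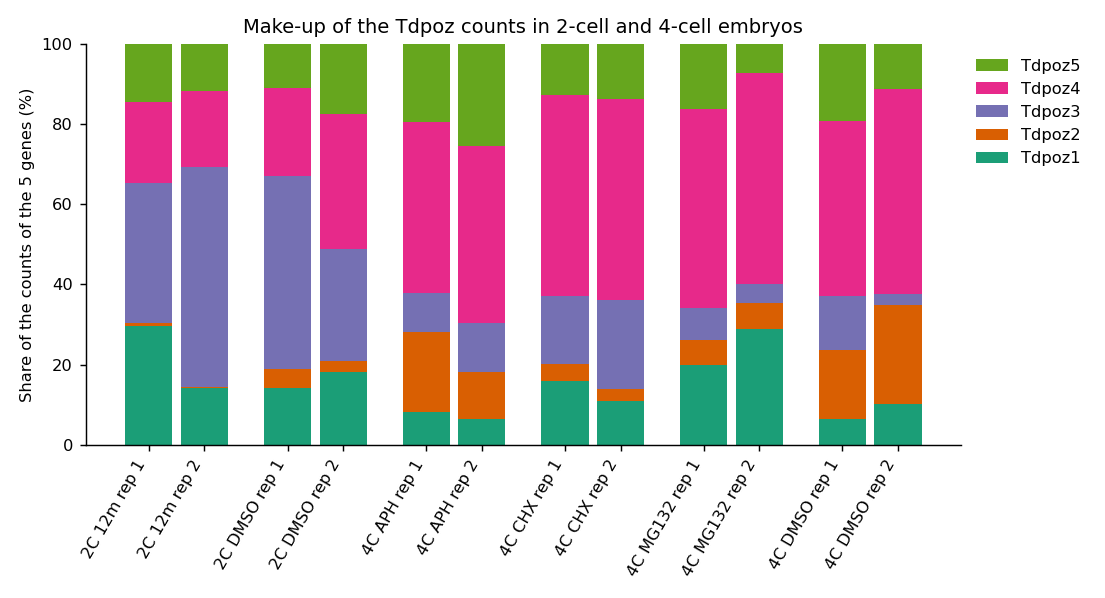
Share of the family's counts held by each member, in percent, in each library of 2-cell embryos of 12-month-old females, DMSO 2-cell embryos and the 4 groups of 4-cell embryos. Each bar is 1 library; Tdpoz3 holds 28.0% and 48.2% in the DMSO 2-cell libraries, and Tdpoz4 holds 42.5% to 52.6% in every 4-cell library.

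The shares of the family's counts were not tested and describe these libraries. Tdpoz3 held 8.03 ± 7.65% in DMSO 4-cell embryos, against 38.1 ± 14.3% in DMSO 2-cell embryos (SD, n = 2). Tdpoz4 held 47.5 ± 5.29%, against 27.9 ± 8.40%. Tdpoz2 held 21.0 ± 5.23%, against 3.71 ± 1.504%. Tdpoz1 held 8.28 ± 2.70%, against 16.1 ± 2.88%. The libraries of the stages did not overlap for these 4 members. Tdpoz5 held 15.2 ± 5.57%, against 14.1 ± 4.55%, and the stages overlapped. Per kilobase, Tdpoz4 was highest in DMSO 4-cell embryos at 12.99 ± 1.24 CPM per kb, followed by Tdpoz2 at 5.50 ± 0.244, Tdpoz5 at 4.74 ± 2.62, Tdpoz3 at 2.47 ± 2.61 and Tdpoz1 at 1.05 ± 0.131. Tdpoz2 had the lowest mean per kilobase at the 2-cell stage. The share of Tdpoz2 in 2-cell embryos of 12-month-old females was 0.499 ± 0.151%.

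At the 4-cell stage the drugs did not empty the family. Aphidicolin, cycloheximide and MG132 libraries there held 18.9 to 66.3 CPM of the summed family, against 26.3 and 35.3 CPM in DMSO 4-cell embryos. The 3 comparisons again share the DMSO libraries, and single members moved in opposite directions.

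Cycloheximide lowered Tdpoz2, 1 of 5 members, where 10.3% of genes were called lower. Tdpoz2 stood at 1.22 and 1.67 CPM in cycloheximide 4-cell embryos, against 6.10 and 6.50 CPM in DMSO 4-cell embryos, a log2 fold change of -2.55 ± 0.65 (adjusted p = 0.0268). The replicates were close in both groups and the groups did not overlap, yet the call was lost when any 1 of the 4 libraries was left out (adjusted p = 0.0877 to 0.158). Tdpoz3 stood at 4.86 and 12.0 CPM, against 4.74 and 0.688 CPM (1.21 ± 0.93, adjusted p = 0.377). The other members had log2 fold changes of 0.63 ± 0.58 (Tdpoz1), 0.09 ± 0.46 (Tdpoz4) and -0.25 ± 0.68 (Tdpoz5).

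MG132 raised Tdpoz1, 1 of 5 members, where 3.06% of genes were called higher. Tdpoz1 stood at 9.35 and 19.2 CPM in MG132 4-cell embryos, against 2.25 and 2.68 CPM in DMSO 4-cell embryos, a log2 fold change of 2.40 ± 0.60 (adjusted p = 0.0458). The groups did not overlap. The call was lost without either DMSO library (2.30 and 2.49, adjusted p = 0.208 and 0.191) or without MG132 replicate 2 (1.69, adjusted p = 0.274). Tdpoz4 stood at 23.3 and 34.9 CPM in MG132 embryos, against 15.4 and 13.5 CPM in DMSO embryos (0.86 ± 0.46, adjusted p = 0.291). The log2 fold changes of Tdpoz2, Tdpoz5 and Tdpoz3 were -0.95 ± 0.62, 0.17 ± 0.67 and 0.15 ± 0.92.

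Aphidicolin changed no member at the 4-cell stage by the edgeR test, which called 0.0% of the 22520 genes tested, although 1846 genes had an unadjusted p under 0.05 and DESeq2 called 299. None of the 5 members had an unadjusted p under 0.05 and DESeq2 called none. The log2 fold changes ran from -0.89 ± 0.62 (Tdpoz2) to 0.07 ± 0.67 (Tdpoz5). Between drugs, Tdpoz1 was lower after aphidicolin, at 1.54 and 1.99 CPM, against 9.35 and 19.2 CPM after MG132 (-3.02 ± 0.62, adjusted p = 0.0292), 1 of 5 members, where 1.44% of genes were called lower. This call was lost without either aphidicolin library (adjusted p = 0.0761 and 0.0641), without MG132 replicate 2 (adjusted p = 0.151) and in a fit of only the libraries compared (adjusted p = 0.101). Between aphidicolin and cycloheximide edgeR called no member (15.9% of genes called, 1 member, Tdpoz2, with an unadjusted p under 0.05 and 1 called by DESeq2, the same gene). Between cycloheximide and MG132 it called none either (10.1% of genes called, 2 members, Tdpoz1 and Tdpoz2, under 0.05, and 1, Tdpoz1, by DESeq2).

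**Figure D3:**
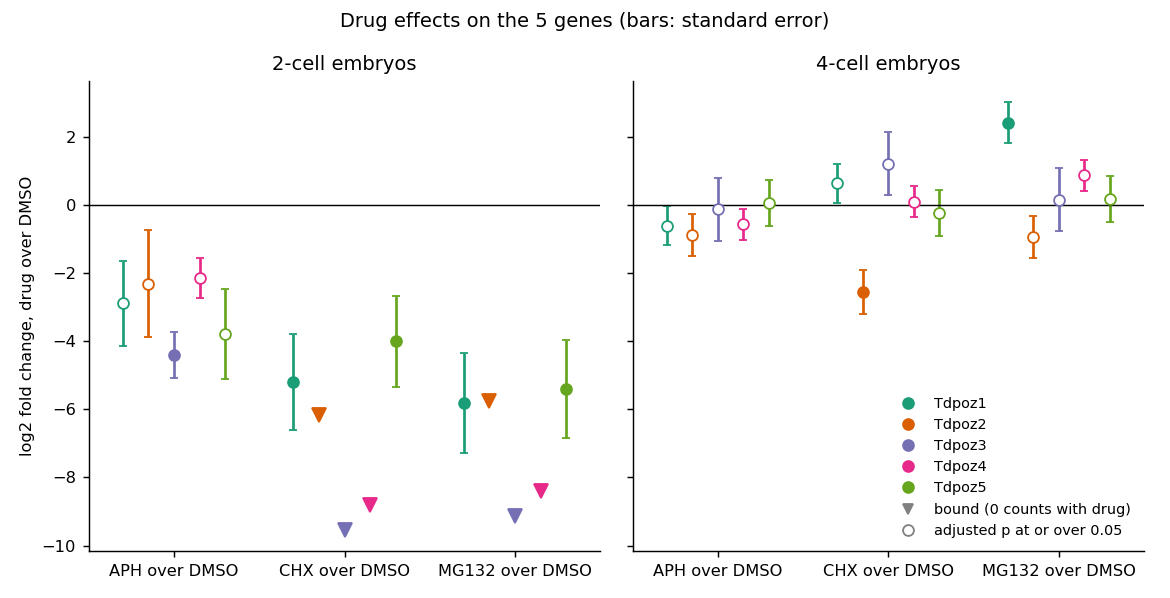
Log2 fold change of each member for each drug against DMSO, at the 2-cell and the 4-cell stage. APH is aphidicolin and CHX cycloheximide. Points are fitted values with bars of 1 SE, triangles mark the smallest size of the fall where a drug group had 0 counts, and filled symbols have an adjusted p under 0.05; after cycloheximide and MG132 all 5 members are filled at the 2-cell stage and 1 each at the 4-cell stage.

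The difference between stages was itself tested, as the 4-cell log2 effect minus the 2-cell log2 effect. For cycloheximide it was called above 0 for 3 of 5 members, where 14.3% of genes were called higher and the median of all genes was 1.25. For MG132 it was called above 0 for 4 of 5, where 6.73% of genes were and the median of all genes was 0.42. For aphidicolin no member was called (0.0% of 27201 genes called, 2892 with an unadjusted p under 0.05; 2 members, Tdpoz3 and Tdpoz5, under 0.05, and 1, Tdpoz3, by DESeq2). The difference could be fitted without a group at 0 counts for Tdpoz1 and Tdpoz5. Tdpoz5 was not called, at 3.8 ± 1.72 for cycloheximide (adjusted p = 0.127) and 5.51 ± 1.80 for MG132 (adjusted p = 0.0588). The Tdpoz1 difference was 5.88 ± 1.76 for cycloheximide (adjusted p = 0.0265) and 8.18 ± 1.85 for MG132 (adjusted p = 0.00903). For cycloheximide it was lost without 2-cell cycloheximide replicate 2 (4.99, adjusted p = 0.0863), 2-cell DMSO replicate 1 (5.45, adjusted p = 0.0585) or either 4-cell DMSO library (5.73 and 5.98, adjusted p = 0.0711 and 0.0708). For MG132 the call of Tdpoz2 was lost without 2-cell DMSO replicate 1, either 2-cell MG132 library, either 4-cell DMSO library or 4-cell MG132 replicate 2 (adjusted p = 0.0657 to 0.162).

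In stem cells the family was near the limit of counting. The 2 members that could be tested, Tdpoz3 and Tdpoz4, were higher after cycloheximide. Tdpoz3 stood at 1.01 and 0.815 CPM in cycloheximide cells, against 0.0925 and 0.135 CPM in DMSO cells, a log2 fold change of 2.85 ± 0.45 (adjusted p = 0.00411). Tdpoz4 stood at 0.724 and 0.588 CPM, against 0.0925 and 0.181 CPM (2.13 ± 0.63, adjusted p = 0.0412). Both were called, 2 of 2 tested, where 13.6% of genes were called higher. In both the groups did not overlap, as was the case, with cycloheximide higher, for 42.2% of genes. Both passed the low-count filter only through the cycloheximide cells (21 and 18 reads of Tdpoz3, 15 and 13 of Tdpoz4). Neither had more than 8 reads in a DMSO or MG132 library. The result of 2 of 2 was thus largely fixed by the filter and is no measure against the share of all genes. These values rest on 39 against 5 reads for Tdpoz3 and on 28 against 6 reads for Tdpoz4. Tdpoz3 was lost without cycloheximide replicate 1 (2.71, adjusted p = 0.0566) or DMSO replicate 1 (2.63, adjusted p = 0.0613). Tdpoz4 was lost without any 1 of the 4 libraries (adjusted p = 0.149 to 0.248), with the replicate number as a block (adjusted p = 0.0543) and by DESeq2 (adjusted p = 0.146). Tdpoz1 and Tdpoz2 had 0 counts in all 6 stem cell libraries and Tdpoz5 had 1 read in all. MG132 changed neither tested member by the edgeR test (3.24% of genes called, 0 members with an unadjusted p under 0.05, 0 by DESeq2), with log2 fold changes of 0.60 ± 0.62 for Tdpoz3 and 0.66 ± 0.78 for Tdpoz4.

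Beside this, the 9 measured markers of the 2-cell embryo summed to 94.0 and 94.5 CPM in cycloheximide stem cells, against 12.2 and 9.57 CPM in DMSO cells. The 7 fibroblast markers, which would mark feeder cells, summed to 580 and 575 CPM, against 1066 and 1294 CPM. The part of either in the Tdpoz values was not tested.

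**Figure D4:**
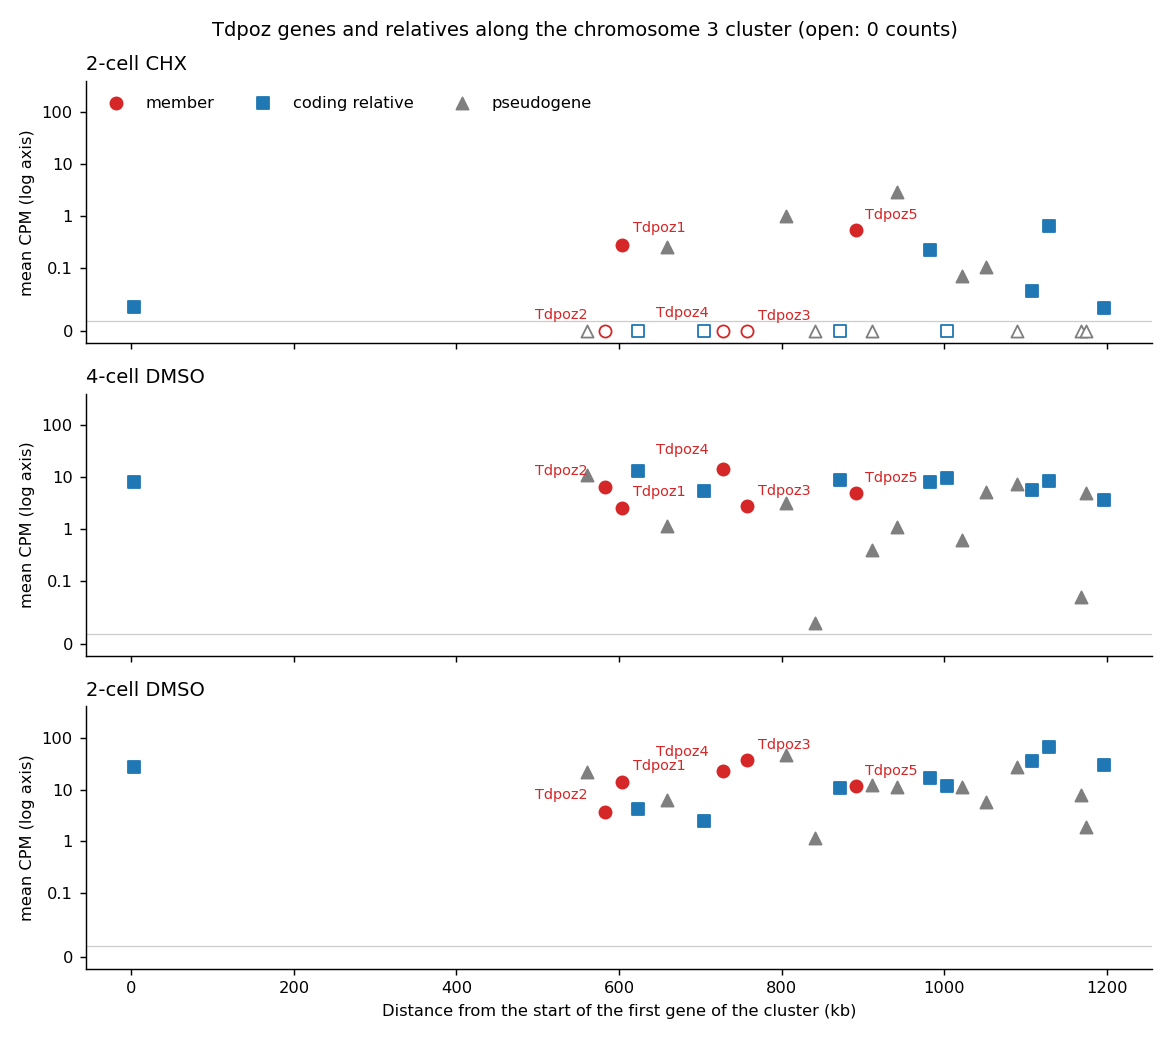
Levels along the cluster in cycloheximide 2-cell, DMSO 4-cell and DMSO 2-cell embryos, from top to bottom. The x axis is the distance in kb from the start of the first gene and the y axis the group mean in CPM on a log scale, with circles for members, squares for coding relatives, triangles for pseudogenes and open symbols at 0 counts; Tdpoz2, Tdpoz3 and Tdpoz4 are open after cycloheximide (CHX) and no member is open in either DMSO panel.

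The members sit among close relatives. Setting the members' coding sequences against all annotated mouse transcripts (at least 50% identity over at least 80% of the coding length) found 24 further genes, of which 9 coding genes and 11 pseudogenes lie in the same cluster and 4 elsewhere, among them Spop on chromosome 11 at 73.4% identity. With the members, the cluster held 25 such genes, whose counts summed to 590 and 308 CPM in DMSO 2-cell embryos. The 5 members made up 21.3% and 17.5% of that sum. It was 8.52 and 3.76 CPM in cycloheximide 2-cell embryos and 11.2 and 10.7 CPM in MG132 2-cell embryos.

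Most of the relatives in the cluster were also lower after cycloheximide and MG132 at the 2-cell stage. After cycloheximide, 9 of 9 coding relatives and 9 of 11 pseudogenes were lower, where 13.0% of all genes were called lower. After MG132, 9 of 9 and 7 of 11 were lower, where 4.68% of all genes were. After aphidicolin all 20 had negative log2 fold changes, but only 1 of 9 and 1 of 11 were called lower, where 0.192% of all genes were. Against MII oocytes of 8-week-old females, 8 of 9 and 11 of 11 were higher in DMSO 2-cell embryos, where 10.1% of all genes were called higher. Since copies may share reads, these counts are not independent of the members.

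The nearest copies of Tdpoz1, Tdpoz2 and Tdpoz3 give values beside those of the member. The copies of Tdpoz1 are Gm9117 and Gm9125, each 98.4% identical. In MG132 4-cell embryos Gm9117 stood at 55.0 and 42.4 CPM, against 7.26 and 10.04 CPM in DMSO 4-cell embryos (2.33 ± 0.45, adjusted p = 0.0198), and Gm9125 at 33.8 and 36.6 CPM, against 5.95 and 9.77 CPM (2.01 ± 0.55, adjusted p = 0.0611). The copies of Tdpoz2 are Gm5773, 97.9% identical, and the pseudogene Gm9141, 98.2% identical. In cycloheximide 4-cell embryos Gm9141 stood at 0.280 and 0.696 CPM, against 4.43 and 5.16 CPM in DMSO 4-cell embryos (-3.70 ± 0.95, adjusted p = 0.0275), and Gm5773 at 0.559 and 3.97 CPM, against 5.71 and 5.09 CPM (-1.64 ± 0.96, adjusted p = 0.25). Gm4982, the copy of Tdpoz3, stood at 0.0607 and 0.0344 CPM in DMSO 4-cell embryos, against 13.2 and 2.71 CPM in DMSO 2-cell embryos (-6.81 ± 1.28, adjusted p = 0.00276).

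Other relatives in the cluster were called as well. Gm37596, a coding relative 98.9% identical to Tdpoz5, stood at 10.4 and 15.9 CPM in DMSO 4-cell embryos, against 5.50 and 2.74 CPM in DMSO 2-cell embryos (2.08 ± 0.66, adjusted p = 0.0308). It was the only 1 of 9 coding relatives called higher, where 19.6% of all genes were. In the same comparison 4 of 9 coding relatives and 6 of 11 pseudogenes were called lower, where 29.4% of all genes were. In cycloheximide 4-cell embryos Gm37596 was lower than in DMSO 4-cell embryos (-2.85 ± 0.66, adjusted p = 0.0186) and Gm9117 higher (1.51 ± 0.44, adjusted p = 0.0438). In MG132 4-cell embryos Gm10696 (2.73 ± 0.53, adjusted p = 0.0202), Gm5286 (2.90 ± 0.69, adjusted p = 0.0399) and the pseudogene Gm9113 (2.66 ± 0.66, adjusted p = 0.0439) were higher than in DMSO 4-cell embryos. Gm5286 is the relative that RefSeq calls Spopfm3. It stood at 0.441 and 0.0589 CPM in H3.3K4M growing oocytes, against 1.68 and 0.773 CPM in H3.3WT growing oocytes (-2.28 ± 0.64, adjusted p = 0.0224). The pseudogene Gm9124 stood at 0.147 and 0 CPM in H3.3K4M oocytes, against 0.738 and 0.773 CPM in H3.3WT oocytes (-3.37 ± 0.74, adjusted p = 0.00603). In stem cells Gm4778 (Spopfm1 in RefSeq) was the only relative in the cluster with enough reads to test. It stood at 0.579 and 0.679 CPM after cycloheximide, against 0.185 and 0.135 CPM after DMSO (1.86 ± 0.45, adjusted p = 0.0209). It too passed the low-count filter only through the cycloheximide cells, with 12 and 15 reads there, against 4 and 3 after DMSO and 2 and 3 after MG132.

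Of 16 coding genes within 500 kb that are no relatives, 8 were tested at the 2-cell stage. After cycloheximide 1 of 8 was lower, where 13.0% of all genes were called lower. After MG132 1 of 8 was lower, where 4.68% of all genes were. Both times this was Tchh, which encodes the hair structure protein trichohyalin (cycloheximide -5.54 ± 1.19, adjusted p = 0.00611, MG132 -5.62 ± 1.20, adjusted p = 0.0128). No neighbour was called higher in either comparison. Tchh was also higher in DMSO 2-cell embryos than in MII oocytes of 8-week-old females (4.45 ± 0.80, adjusted p = 0.00523) and higher in embryos than in MII oocytes of 12-month-old females (9.78 ± 1.28, adjusted p = 0.0015). It was 1 of 8 tested each time, where 10.1% and 5.8% of all genes were called higher. In 4-cell embryos the called neighbours, each 1 of 9 tested, were Mrpl9 after cycloheximide (-1.42 ± 0.32) and S100a10 after MG132 (-4.29 ± 1.08). Of all genes, 10.3% and 4.33% were called lower there. Between the stages, of 8 tested, Them4 was higher (2.55 ± 0.46) and S100a11 lower (-2.06 ± 0.57), where 19.6% and 29.4% of all genes were. In growing oocytes Mrpl9 (1.09 ± 0.20, adjusted p = 0.00194) and Oaz3 (0.98 ± 0.24, adjusted p = 0.0117) were higher with H3.3K4M than with H3.3WT. They were 2 of 6 tested, where 22.4% of all genes were called in either direction. In MII oocytes of 8-week-old females Tdrkh (-1.53 ± 0.36), Oaz3 (-2.55 ± 0.43) and Mrpl9 (-2.01 ± 0.35) were lower than in H3.3WT growing oocytes. They were 3 of 6 tested, where 61.8% of all genes were called in either direction.

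Across the 16 group means of log2(CPM + 1), members correlated with each other at Pearson r = 0.648 (Tdpoz2 with Tdpoz3) to 0.953 (Tdpoz4 with Tdpoz5). These are descriptions over means that share libraries and a single on-and-off pattern. Among 12263 genes with at least 10 CPM in some group, the genes most like the summed members were Zfp352 (r = 0.963), Spz1, Obox4-ps35, Zfp54, AF067061, AF067063, AA414992, Olfr376, Obox3-ps5 and D13Ertd608e (r = 0.949). Zfp352 is a zinc finger gene used as a marker of the 2-cell embryo. For single members the closest were Obox3-ps1, AA414992 and Vmn2r94 for Tdpoz1 (r = 0.961 to 0.957), Pramel5, AC154247.1 and Usp9y for Tdpoz2 (0.975 to 0.957), Drr1, BB287469 and AF067061 for Tdpoz3 (0.966 to 0.952), Spz1, AF067063 and D13Ertd608e for Tdpoz4 (0.9796 to 0.967), and Obox4-ps35, AC102268.2 and Obox3-ps5 for Tdpoz5 (0.976 to 0.968).

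Well-known features of the 2-cell embryo give the members a scale. MERVL-int, the internal part of the retrovirus, held 6058 and 5855 CPM in DMSO 4-cell embryos, against 24361 and 14355 CPM in DMSO 2-cell embryos. In MG132 4-cell embryos it held 13738 and 21492 CPM. Its promoter repeat MT2_Mm held 7041 and 5708 CPM in DMSO 4-cell embryos, against 10548 and 9536 CPM in DMSO 2-cell embryos. Zscan4d and Usp17la also fell. Zscan4d stood at 8.75 and 3.03 CPM in DMSO 4-cell embryos, against 236 and 449 CPM in DMSO 2-cell embryos (-5.45 ± 0.84, adjusted p = 0.000424), and Usp17la changed by -6.07 ± 1.20 (adjusted p = 0.00352). Zfp352 changed by -4.13 ± 0.59 (adjusted p = 0.000399). Between the same libraries the members changed by -3.35 ± 0.98 (Tdpoz3, the only member called), -2.06 ± 0.88 (Tdpoz1), -0.82 ± 0.71 (Tdpoz5), -0.25 ± 0.49 (Tdpoz4) and 1.19 ± 0.90 (Tdpoz2). Whether any member differs from these features was not tested.

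Genes of the SPOP pathway were counted in the same comparisons. Of 34 genes of the CUL3 ubiquitin ligase, its adaptors and its regulators, 33 were tested at the 2-cell stage. After cycloheximide 3 were higher and 8 lower, where 11.0% of all genes were called higher and 13.0% lower. After MG132 2 were higher and 0 lower, where 5.1% of all genes were called higher and 4.68% lower, and after aphidicolin 0 were called. The median log2 fold change of the list after cycloheximide was -0.50, beside -0.26 for all genes. The lowest adjusted p values were those of Kctd5 (3.75 ± 0.43), Rhobtb1 (3.02 ± 0.41), Cops6 (-2.10 ± 0.46) and Glmn (2.01 ± 0.46). Kctd5 and Rhobtb1 encode CUL3 adaptors, and Cops6 a subunit of the COP9 signalosome, which removes NEDD8 from cullins. After MG132 the 2 called genes were Kctd5 (1.86 ± 0.40) and Glmn (1.96 ± 0.46). Between the 4-cell and the 2-cell DMSO embryos, 8 of 34 were higher and 11 lower, where 19.6% of all genes were called higher and 29.4% lower. Cul3 itself was higher (3.48 ± 0.40, adjusted p = 6.1e-05), a gene outside the 4 of lowest p that was added after its value was seen. Kbtbd7 (-5.23 ± 0.32), Rhobtb3 (-5.96 ± 0.45), Uba3 (-3.38 ± 0.29) and Klhl13 (-7.28 ± 0.63) were those of lowest adjusted p. At the 4-cell stage cycloheximide gave 5 higher and 8 lower of 34 (8.77% and 10.3% of all genes), Spop among the lower (-1.23 ± 0.32, adjusted p = 0.0296), and MG132 gave 4 higher and 1 lower (3.06% and 4.33% of all genes). In stem cells cycloheximide gave 1 higher and 6 lower (13.6% and 13.4% of all genes), with Cul3 lower (-0.54 ± 0.12, adjusted p = 0.0141). MG132 gave 1 higher and 0 lower there, where 3.24% of all genes were called in either direction.

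Of 12 genes of other proteins with a MATH or TRAF domain, Spop among them, 11 were tested at the 2-cell stage and 10 among the 4-cell groups. After cycloheximide at the 2-cell stage the only call was Usp7 (1.72 ± 0.32, adjusted p = 0.00254), a deubiquitinase, where 11.0% of all genes were called higher and 13.0% lower. After MG132, where 5.1% of all genes were called higher and 4.68% lower, and after aphidicolin 0 were called. Between the DMSO 4-cell and 2-cell embryos 3 of 11 were higher and 4 lower, where 19.6% of all genes were called higher and 29.4% lower. The list median was -1.30 beside -0.57 for all genes. Spop itself was higher in DMSO 2-cell embryos than in MII oocytes of 8-week-old females (2.34 ± 0.41, adjusted p = 0.00372) and was not called after any drug at the 2-cell stage.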

How the data were processed

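The authors deposited raw read counts per gene and repeat subfamily for each of the 32 libraries, and per the submitters' processing notes reads were trimmed with cutadapt 1.16 and aligned with STAR to mm10. The sources used here do not name the counter, its annotation, its strand setting or its rule for multiply matching reads. Libraries were Smart-Seq2 for oocytes and embryos and TruSeq after poly(A) capture for stem cells, per the labels' protocols. Gene names and positions come from GENCODE vM21.

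From the counts, levels were computed as CPM over genes and repeats. Differences were tested with edgeR 4.0.16 (R 4.3.3), using TMM normalization, filterByExpr (minimum count 10, minimum total 15) and the robust quasi-likelihood F test, two-sided, with Benjamini-Hochberg adjustment over all genes tested and a threshold of 0.05. Libraries of 1 stage shared an estimate of spread. Standard errors are the log2 fold change divided by the root of F. A fold against a group at 0 counts is a bound, from 3 counts over the group. Alternatives were DESeq2 1.42.0 size factors and its Wald test, no low-count filter, library sizes from genes only, fits of only the libraries compared, the replicate number as a block, and leaving out each library.

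Replicate numbers pair libraries where every pair's deviations correlate above 0.1. This held for the drug and DMSO 2-cell groups (0.2173 to 0.4794 over 5604 genes) but not for all pairs with 2-cell embryos of 12-month-old females, for 4-cell groups (-0.0001 to 0.1655) or for stem cells (0.0471 to 0.2096). No 2 replicates agreed within sampling noise.

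Relatives were found with BLAST 2.17.0 on coding sequences against GENCODE transcripts, in place of the protein comparison first planned, and members were aligned with MAFFT 7.526. In simulated counts with known changes, the test recovered 19% of 4-fold and 59% of 16-fold changes in the 2-cell cycloheximide comparison, 15% and 45% in the 4-cell one and 89% and 97% in the stem cell one. Only 100 genes were changed by each fold and all others were left equal, whereas 5367 genes were called in the real 2-cell cycloheximide comparison. The adjustment depends on how many genes change, so these shares do not give the recovery in the real data. The text names the 5 members, the genes of most similar pattern over group means (10 for the sum and 3 per member, predicted gene names left out), examples of called relatives, called neighbours within 500 kb, and up to 4 called genes of lowest p per list. The members and lists were chosen with earlier results of these data known.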

Additional observations from a re-analysis of the deposited data

Results flagged for a closer look

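The effects of cycloheximide and MG132 on the members differed between the 4-cell and the 2-cell stage by edgeR's test of the difference itself, with Benjamini-Hochberg adjustment over 27201 genes. For cycloheximide the adjusted p was 0.02646 for Tdpoz1, 0.0001883 for Tdpoz3 and 3.742e-05 for Tdpoz4. For MG132 it was 0.009027 for Tdpoz1, 0.03896 for Tdpoz2, 0.0008599 for Tdpoz3 and 9.314e-05 for Tdpoz4. All 7 differences were positive, with the drug effect more negative at the 2-cell stage. The median difference of all genes was also positive, at 1.25 for cycloheximide and 0.42 for MG132. Of all genes, 14.3% were called higher for cycloheximide and 6.73% for MG132. The fitted sizes rest on 2-cell groups with 0 counts for Tdpoz2, Tdpoz3 and Tdpoz4. Among the called members only Tdpoz1 has a size that does not, 5.88 ± 1.76 for cycloheximide and 8.18 ± 1.85 for MG132. Tdpoz5 had no group at 0 counts either and was not called, at 3.8 ± 1.72 for cycloheximide and 5.51 ± 1.80 for MG132.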

How the results depend on the processing

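The count of members called stayed within 1.5 times under 234 alternative fits and moved further under 48. Members called against MII oocytes in DMSO 2-cell embryos (5) and in embryos of 12-month-old females (4) did not change in number under any alternative, and neither did the 5 called after cycloheximide or MG132 at the 2-cell stage, except when a library was left out. For aphidicolin at the 2-cell stage the count was 4 with no low-count filter, 3 by DESeq2 and 0 in a fit of only the libraries compared. For aphidicolin against MII oocytes it was 5 with no filter and 3 by DESeq2, and for cycloheximide and MG132 against MII oocytes 1 each with no filter, and 1 by DESeq2 for cycloheximide. Between drugs at the 2-cell stage it was 4 with no filter for aphidicolin against cycloheximide and against MG132, 3 by DESeq2 against cycloheximide, and 1 in a fit of only the libraries compared against MG132. Between drugs at the 4-cell stage DESeq2 called 1 for aphidicolin against cycloheximide, 1 for cycloheximide against MG132 and 2 for aphidicolin against MG132, where no filter gave 2 and only the libraries compared 0. For DMSO 4-cell against 2-cell embryos the count was 2 with no filter and 2 in a fit of only the libraries compared. The stage difference gave 1 for aphidicolin with no filter and 1 by DESeq2, and for cycloheximide 5 with no filter and 5 in a fit of only the libraries compared. The cause of these shifts was not tested.

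With the replicate number as a block, the stem cell cycloheximide count was 1, and by DESeq2 it was also 1. The block changed no other member's call. No pairing gave the members a count in growing or MII oocytes, and with replicate numbers crossed, 5727 genes were called in growing oocytes (3444 without a block, 2822 with the block as numbered) and 124 in MII oocytes (121 and 188).

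When 1 library was left out, the count ran from 0 to 1 for cycloheximide in stem cells, aphidicolin at the 2-cell stage, MG132 at the 4-cell stage, aphidicolin against MG132 at the 4-cell stage and DMSO 4-cell against 2-cell embryos, from 2 to 4 for cycloheximide and for MG132 at the 2-cell stage, and was 0 each time for cycloheximide at the 4-cell stage. It ran from 2 to 4 for aphidicolin against MII oocytes, 2 to 3 against cycloheximide, 1 to 2 against MG132, 2 to 3 for the stage difference of cycloheximide and 3 to 4 for that of MG132. Single members that changed sign were all uncalled. Their log2 fold changes ran from -0.58 to 1.34 for Tdpoz4 after MG132 in stem cells, from -1.62 to 0.0105 for Tdpoz1 and -1.80 to 0.0916 for Tdpoz3 in embryos of 12-month-old females, from -0.96 to 1.88 for Tdpoz3 and -0.45 to 0.80 for Tdpoz5 after aphidicolin at the 4-cell stage, from -0.57 to 0.56 for Tdpoz4 and -0.99 to 0.45 for Tdpoz5 after cycloheximide, and from -0.68 to 2.16 for Tdpoz3 and -0.34 to 0.91 for Tdpoz5 after MG132. Tdpoz4 after cycloheximide at the 4-cell stage was -0.0237 with the replicate block and -0.0069 in a fit of only the libraries compared.

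Another scaling moved the median of all genes by up to 0.31 (log2), for DMSO 2-cell embryos against MII oocytes with library sizes from genes only. In the simulated embryo counts the test recovered few 4-fold changes, and how far this holds in the real data was not tested. With 2 libraries a group, members without a call are not shown to be unchanged. Leaving out libraries was not run for relatives, neighbours or lists.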
